A study of Mus musculus with 14 samples.

Results

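Colonic lamina propria macrophages lacking both *Il10ra* and *Ccr2* (DKO) were compared with WT macrophages, in 8 of the 14 libraries of the series. Each library was made from 1 mouse, and the members were chosen by the genotype in the labels: DKO (mice 3, 9, 12 and 14) was Cdcs1, Il10ra -/-, Ccr2 -/-, and WT (mice 4, 5, 10 and 13) was Cdcs1 alone. All of these mice were C57BL/6 mice of 5 weeks that carried Cdcs1, a locus that raises susceptibility to colitis. Of the other libraries, values of the 4 IL10RAKO mice (Cdcs1, Il10ra -/-) are given only where they differ or stand beside DKO. These 4 mice were nevertheless part of the fit behind every test of DKO against WT, and share its filter, scaling and estimate of spread. Of the rest, 1 further WT mouse (mouse 11) enters only as an alternative, and the CCR2KO genotype is a single mouse. The study asked whether loss of CCR2 alters gene expression in mature gut macrophages without IL-10 receptor signalling, and the cells, from colon and cecum, were sorted as positive for CD45, CD64, CD11b and MHCII and negative for Ly6C, Ly6G and CD103. Both deletions were germline, so every cell of a DKO mouse lacked the genes, and DKO mice develop colitis. Inflammation of the tissue and loss of the receptors in the macrophage itself cannot be told apart in this design. The labels list no Il10ra or Ccr2 allele for WT, while the study's colitis experiments used WT mice heterozygous for both deletions, so whether the sequenced WT mice were heterozygous is not known here.

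IL-10 is a cytokine that restrains macrophages. It binds a receptor whose ligand-binding chain is encoded by *Il10ra* and signals through the kinases JAK1 and TYK2 to the transcription factor STAT3, which lowers the output of inflammatory cytokine genes. CCR2 is the chemokine receptor that lets classical monocytes leave the bone marrow and enter inflamed tissue, where they replace gut macrophages throughout life. Interferon gamma acts on macrophages through a different receptor, and genes that interferons induce often carry gamma-activated sequences or interferon-stimulated response elements in their promoters, the second of which bind the IRF factors.

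Genes of the interferon gamma response list described below carried such motifs close to their start sites more often than all promoters did. The 7 promoters shown were picked by hand from genes already known to be higher in DKO whose promoter holds a motif. *Cxcl9*, *Cxcl10* and *Serpinb9* are not on that list. Sequences are from RefSeq (GRCm38.p6), from 250 bases before to 50 bases after each gene's start, and each line gives a window of this promoter 5′ to 3′ on the strand of the gene. In the first 4 lines the capitals mark the core of an interferon-stimulated response element (GAAANNGAA or its reverse complement), and in the last 3 lines they mark a gamma-activated sequence (TTCNNNGAA). Gene starts in these lines are those of RefSeq, and for *Serpinb9* and *Gbp5* they lie inside the longer gene spans of the GENCODE annotation, which is the source of gene coordinates elsewhere in the text.
Cxcl9, chr5:92328220-92328280, minus strand, motif start 175 bases before the gene start: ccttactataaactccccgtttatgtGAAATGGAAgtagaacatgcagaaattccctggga
Cxcl10, chr5:92349068-92349128, minus strand, motif start 213 bases before the gene start: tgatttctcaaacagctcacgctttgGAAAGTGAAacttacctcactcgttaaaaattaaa
Serpinb9, chr13:33004470-33004530, plus strand, motif start 45 bases before the gene start: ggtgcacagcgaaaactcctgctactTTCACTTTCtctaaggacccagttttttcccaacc
Gbp5, chr3:142496744-142496804, plus strand, motif start 164 bases before the gene start: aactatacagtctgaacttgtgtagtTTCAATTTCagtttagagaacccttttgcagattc
Irf1, chr11:53769898-53769958, plus strand, motif start 90 bases before the gene start: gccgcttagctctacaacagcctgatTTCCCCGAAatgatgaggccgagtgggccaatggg
Serpina3g, chr12:104236088-104236146, plus strand, motif start 33 bases before the gene start: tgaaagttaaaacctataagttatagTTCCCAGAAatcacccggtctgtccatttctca
Igtp, chr11:58199485-58199545, plus strand, motif start 45 bases before the gene start: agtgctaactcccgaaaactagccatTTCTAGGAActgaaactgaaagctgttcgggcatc
All 7 genes were higher in DKO than in WT macrophages, as given below, which was part of how they were picked.

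Both motifs were searched on both strands, and the 2 patterns can overlap. Of the 30 genes of the interferon gamma response list, 21 had a promoter in the RefSeq table. The response element core was found in 14 of these 21 (66.7%), against 9.76% of all 27025 promoters and 8.97% of the promoters of tested genes. The gamma-activated sequence was found in 10 of 21 (47.6%), against 9.55% of all promoters. In MHC class I processing the core was in 4 of 15 promoters (26.7%) and the gamma-activated sequence in 1 (6.67%). Among antiviral interferon genes they were in 10 of 16 (62.5%) and 2 (12.5%). Among all genes higher in DKO, 147 of 956 promoters (15.4%) held the response element core and 100 (10.5%) the gamma-activated sequence, and among all genes lower in DKO the shares were 8.49% and 7.61%. None of the 25 promoters of resident macrophage genes held a gamma-activated sequence. The Maf motif TGCTGAC was found in 4 of these 25 (16.0%), against 5.28% of all promoters. Of these 4 genes *Timd4* did not pass the test of DKO against WT. The same motif was in 2 of 21 promoters (9.52%) of the interferon gamma response list. Among all genes lower in DKO its share was 6.39%, and among all genes higher 4.39%. These are matches of letters, described without a test, and not sites shown to be bound.

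The 8 libraries held 13085287 to 21216468 counted reads, and 13136 genes had enough reads to be tested with edgeR. On the first principal component (44.3% of the variance) DKO libraries lay from 52.3 to 66.7 and WT libraries from -84.1 to -35.8. WT mouse 4 lay away from the remaining 7 libraries on the second component (20.7%), at 103.6 against -56.7 to 5.71. Reads of Y-linked genes were present in 3 of 4 DKO mice and 1 of 4 WT mice, so the sexes were not balanced, and counts with sex as a term in the model are given beside the totals. Levels are CPM, reads of a gene scaled to the library's TMM-adjusted total, and values by mouse are in the order WT mice 4, 5, 10 and 13, then DKO mice 3, 9, 12 and 14. Fold changes are log2 values of DKO over WT with their standard error, and a gene was called higher or lower at an adjusted p under 0.05 (edgeR quasi-likelihood test, Benjamini-Hochberg over all 13136 genes). In these bulk libraries fewer cells that express a gene and less RNA of that gene in each cell cannot be told apart.

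The targeted genes were low in DKO mice. *Ccr2* (chr9:124101950-124113557, mm10) was at 561, 595, 702 and 514 CPM in the WT mice and 3.92, 5.79, 6.68 and 6.28 CPM in the DKO mice. The groups did not overlap, and the log2 fold change was -6.71 ± 0.27 (adjusted p = 4.02e-09), the smallest adjusted p of all tested genes. *Il10ra* (chr9:45253837-45269149) was at 379.6, 217, 251 and 290.1 CPM in the WT mice and 6.62, 3.61, 7.59 and 3.41 CPM in the DKO mice, a log2 fold change of -5.75 ± 0.35 (adjusted p = 1.71e-07). Reads were still counted at both genes in every DKO mouse, with 58 to 120 reads at *Il10ra*, and which exons they covered is not recorded in gene counts. The other receptor chain, *Il10rb*, did not pass the test (-0.15 ± 0.15), nor did the kinase genes *Jak1* (0.10 ± 0.23) and *Tyk2* (0.19 ± 0.22). *Il10* itself was at 40.7, 55.5, 63.2 and 133 CPM in the WT mice and 25.3, 75.3, 30.6 and 26.3 CPM in the DKO mice, with a wide spread between mice and a log2 fold change that missed the threshold (-0.89 ± 0.51, adjusted p = 0.251).

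Of the 13136 genes, 1213 (9.23%) were higher and 1211 (9.22%) lower in DKO, 18.5% in all. At least 2-fold changes were seen for 665 of the higher and 921 of the lower genes, and at least 8-fold changes for 142 and 267. The values of the DKO and WT mice did not overlap for 2134 of the 2424 called genes, and for 2910 (22.2%) of all 13136. The median over all tested genes was -0.06, so the change was nearly balanced under TMM scaling, with 50.0% of calls higher. Scaled by library totals alone the median moved to -0.32 and the split to 748 higher and 2140 lower (25.9% higher), and directions are therefore given relative to the TMM-scaled median. With sex as a term 2013 genes were called (50.2% higher). In a fit of the 8 libraries of DKO and WT alone, without IL10RAKO, 2209 of 12839 tested genes were called (51.8% higher). With WT mouse 11 added, the counts were 985 higher and 858 lower.

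**Figure D1:**
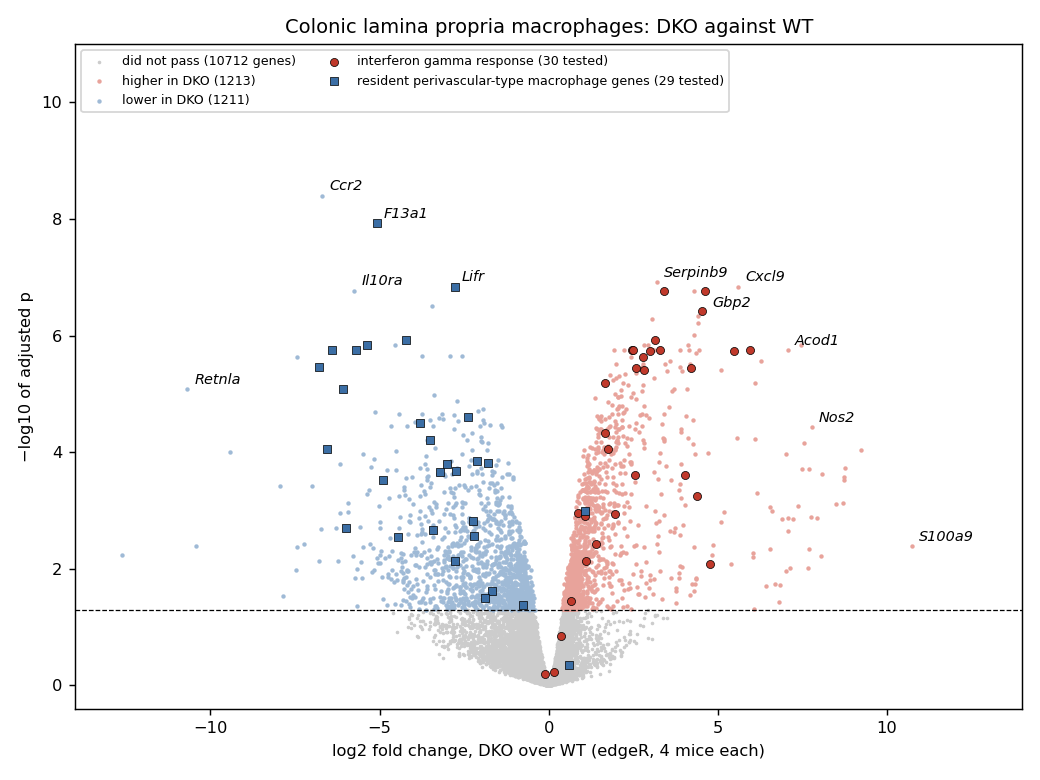
Each point is 1 of 13136 genes, placed by its log2 fold change of DKO over WT (x axis) and the −log10 of its adjusted p (y axis), with the dashed line at an adjusted p of 0.05. The 30 interferon gamma response genes (red circles) lie to the right, except for 3 that did not pass, and 27 of the 29 resident macrophage genes (blue squares) lie to the left above the line.

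The genes with the smallest adjusted p that rose belonged mostly to the interferon response and to the inflammatory secretome. *Serpinb9* (chr13:33003250-33017957), an inhibitor of the cytotoxic protease granzyme B, was at 13.1, 18.4, 14.6 and 15.2 CPM in the WT mice and 175, 129, 129.7 and 123 CPM in the DKO mice. Its log2 fold change was 3.18 ± 0.17 (adjusted p = 1.22e-07). *Cxcl9* (chr5:92321347-92328079), a chemokine that draws T cells through CXCR3, was at 18.5, 17.1, 11.0 and 9.92 CPM in the WT mice and 703, 639, 599 and 798 CPM in the DKO mice. The lowest DKO mouse was far above the highest WT mouse, and the log2 fold change was 5.60 ± 0.32 (adjusted p = 1.46e-07). The guanylate-binding protein gene *Gbp2* was at 20.2, 22.3, 13.7 and 13.7 CPM in the WT mice and 507, 424, 385 and 416 CPM in the DKO mice (4.63 ± 0.28). *Mir6381*, also among the first 10, lies inside *Gbp2* on the other strand, and reads of the pair cannot be told apart. *Cfb*, complement factor B of the alternative pathway, was at 72.1, 119.6, 88.8 and 94.8 CPM in the WT mice and 1729, 2003, 1977 and 2255 CPM in the DKO mice (4.41 ± 0.30). *Il1a*, which encodes the alarm cytokine IL-1α, reached 2637, 4019, 2182 and 2272 CPM in the DKO mice against 109, 107, 131 and 178 CPM in the WT mice (4.40 ± 0.30). *Il18bp*, whose product captures IL-18, was at 5.16, 11.8, 10.0 and 4.99 CPM in the WT mice and 145, 162, 147 and 172 CPM in the DKO mice (4.28 ± 0.31). In each of these genes all 4 DKO mice were above all 4 WT mice.

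**Figure D2:**
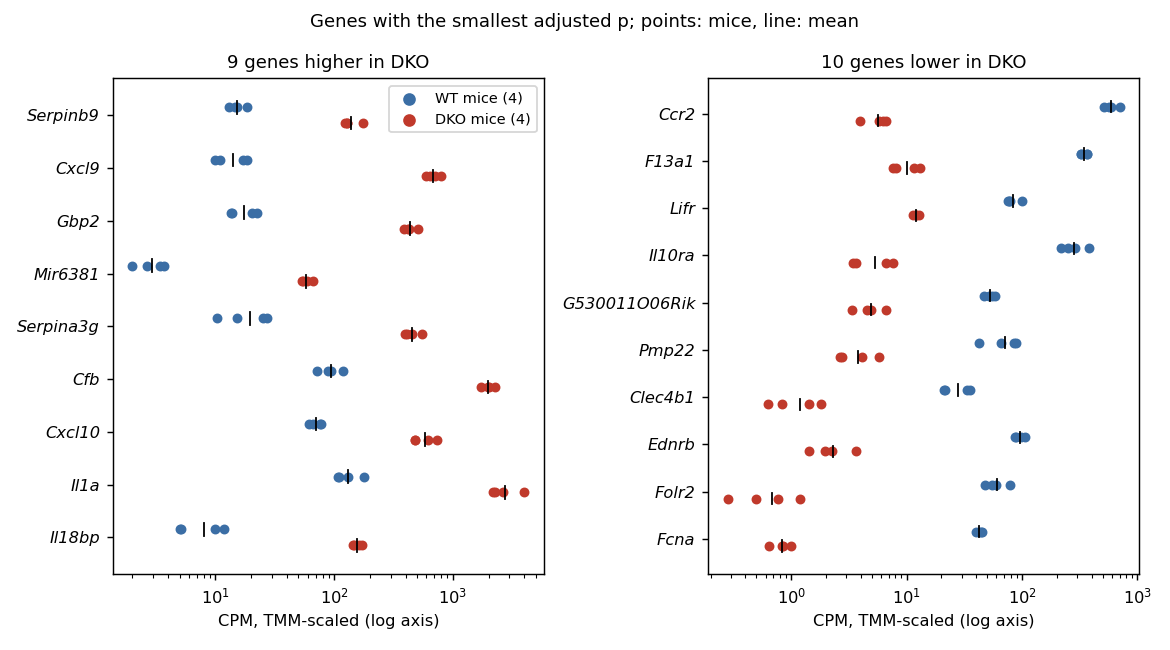
Levels in each mouse (points, CPM on a log axis) with the group mean (line) for 9 of the 10 genes higher (left) and the 10 genes lower (right) in DKO with the smallest adjusted p. WT mice (blue) and DKO mice (red) did not overlap for any of the 19 genes, which was part of the rule that chose them.

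Among genes at a mean of at least 5 CPM, the 10 largest increases were, in order of fold, those of *S100a9*, *Reg3b*, *Ngp*, *Nos2*, *Reg3g*, *Inhba*, *Acod1*, *S100a8*, *Ly6i* and *Slc7a2*. *Nos2*, the inducible nitric oxide synthase, was at 0.0955, 2.40, 7.50 and 3.40 CPM in the WT mice and 452, 630.1, 1129 and 746 CPM in the DKO mice (7.77 ± 0.89). *Acod1*, which makes itaconate, was at 2.58, 5.45, 8.49 and 1.73 CPM in the WT mice and 518, 982, 487 and 479 CPM in the DKO mice (7.06 ± 0.57). *Inhba*, which encodes a subunit of activin, was at 3.53, 7.21, 2.73 and 5.99 CPM in the WT mice and 876, 1127, 816 and 570.0 CPM in the DKO mice (7.46 ± 0.57). The nitric oxide synthase substrate arginine enters the cell through the transporter encoded by *Slc7a2*, which was at 0, 1.88, 0 and 3.66 CPM in the WT mice and 70.2, 75.1, 145 and 77.4 CPM in the DKO mice (6.16 ± 0.97). *Ly6i*, a Ly6 family gene, rose by 6.26 ± 0.53. A single WT mouse moved some of these values by over 1.5 times: without WT mouse 10 the log2 fold change of *Nos2* was 8.61, without WT mouse 13 that of *Slc7a2* was 7.35, and without WT mouse 5 that of *Ly6i* was 6.95.

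The other 5 of these genes are best known from neutrophils or gut epithelium. *S100a9*, a neutrophil and monocyte alarmin subunit, had 0, 0, 0 and 0 reads in the WT mice and 145, 143, 241 and 293 reads in the DKO mice, at least a 308-fold difference when WT is set to the floor of 3 reads over the group. Its partner *S100a8* had 0, 0, 0 and 11 reads in the WT mice and 178, 177, 305 and 368 reads in the DKO mice (6.55 ± 1.39), and the neutrophil granule gene *Ngp* had 3 reads in all WT mice together against 806 in DKO, a ratio of 302 (counting interval 103 to 1465). The gate left out Ly6G+ cells. Of 10 neutrophil markers, 6 could be tested and 5 were higher. The summed level of these 6 was 75.2 to 122 CPM in WT and 164 to 270 CPM in DKO. *Csf3r* had the most of these reads, 1142 to 2829 in WT mice and 2377 to 4535 in DKO mice. The list median per mouse was -3.14 to -1.69 log2 CPM in WT and 3.12 to 3.79 in DKO. *Ly6g* itself had 0 or 1 read in WT mice and 1 to 10 in DKO mice, and *Mpo* and *Elane* were at 0 in every WT mouse. The antimicrobial lectin genes *Reg3b* (8.08 ± 1.16) and *Reg3g* (7.69 ± 1.07), typical of gut epithelium, were at 0, 0.645, 0.497 and 0 CPM in the WT mice and 69.0, 62.9, 88.3 and 107 CPM in the DKO mice for *Reg3b*. The summed level of the 9 tested epithelial markers was 132 to 1512 CPM in WT mice and 152 to 255 CPM in DKO mice, with no marker higher. All WT reads of *S100a8* came from WT mouse 13 and all of *Ngp* from WT mouse 4. Without these mice, with the floor of 3 reads over the remaining WT mice, the difference was at least 310-fold for *S100a8* and at least 220-fold for *Ngp*. Without WT mouse 5 the log2 fold change of *Reg3b* was 8.68, and without WT mouse 10 that of *Reg3g* was 8.37. With WT mouse 11 added, the mouse with the highest epithelial marker sum of the series (4328 CPM), *Reg3g* was at 3.74 and did not pass (adjusted p = 0.0846, edgeR). What part neutrophil or epithelial RNA has in these values was not tested.

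The interferon gamma response had the highest median of the 31 gene lists. Of its 30 genes, all tested, 27 were higher and none lower, at a median of 2.56 on the log2 scale against -0.06 over all genes. The immunity-related GTPases, which attack vacuoles that hold intracellular microbes, rose together, among them *Tgtp2* (3.28 ± 0.26), *Ifi47* (2.99 ± 0.24), *Irgm1* (2.58 ± 0.23) and *Igtp* (2.80 ± 0.25). All 8 guanylate-binding protein genes of the list rose, from 0.66 ± 0.20 for *Gbp9* to 4.63 ± 0.28 for *Gbp2*. Some members of these families and of the *Serpina3* cluster are closely related copies, so the split of reads between such copies is uncertain. *Serpina3g*, a protease inhibitor, was at 27.1, 25.3, 10.3 and 15.1 CPM in the WT mice and 553, 411, 396 and 452 CPM in the DKO mice (4.54 ± 0.30). The PD-L1 gene *Cd274* was at 157, 170.3, 85.7 and 153 CPM in the WT mice and 1067, 1649, 1158 and 1115 CPM in the DKO mice (3.14 ± 0.23), and *Ido1*, which degrades tryptophan, was at 0, 0, 0 and 0.932 CPM in the WT mice and 10.2, 2.68, 3.65 and 7.07 CPM in the DKO mice (4.76 ± 1.12). *Ido1* was at 0 in 3 WT mice and spread widely between DKO mice. Without WT mouse 13, the only WT mouse with reads, its difference was at least 127-fold with WT set to 3 reads over the group. The transcription factor *Irf1* (1.74 ± 0.22) and the feedback inhibitor *Socs1* (2.54 ± 0.37) also rose. The 3 genes that did not pass were the receptor chains *Ifngr1* (0.15 ± 0.17) and *Ifngr2* (0.36 ± 0.16) and the MHC class II activator *Ciita* (-0.12 ± 0.14). The call of *Gbp9*, the smallest increase, was lost when any of 6 mice was left out. The list's median level per mouse was 5.30 to 5.62 log2 CPM in WT and 7.75 to 8.09 in DKO.

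**Figure D3:**
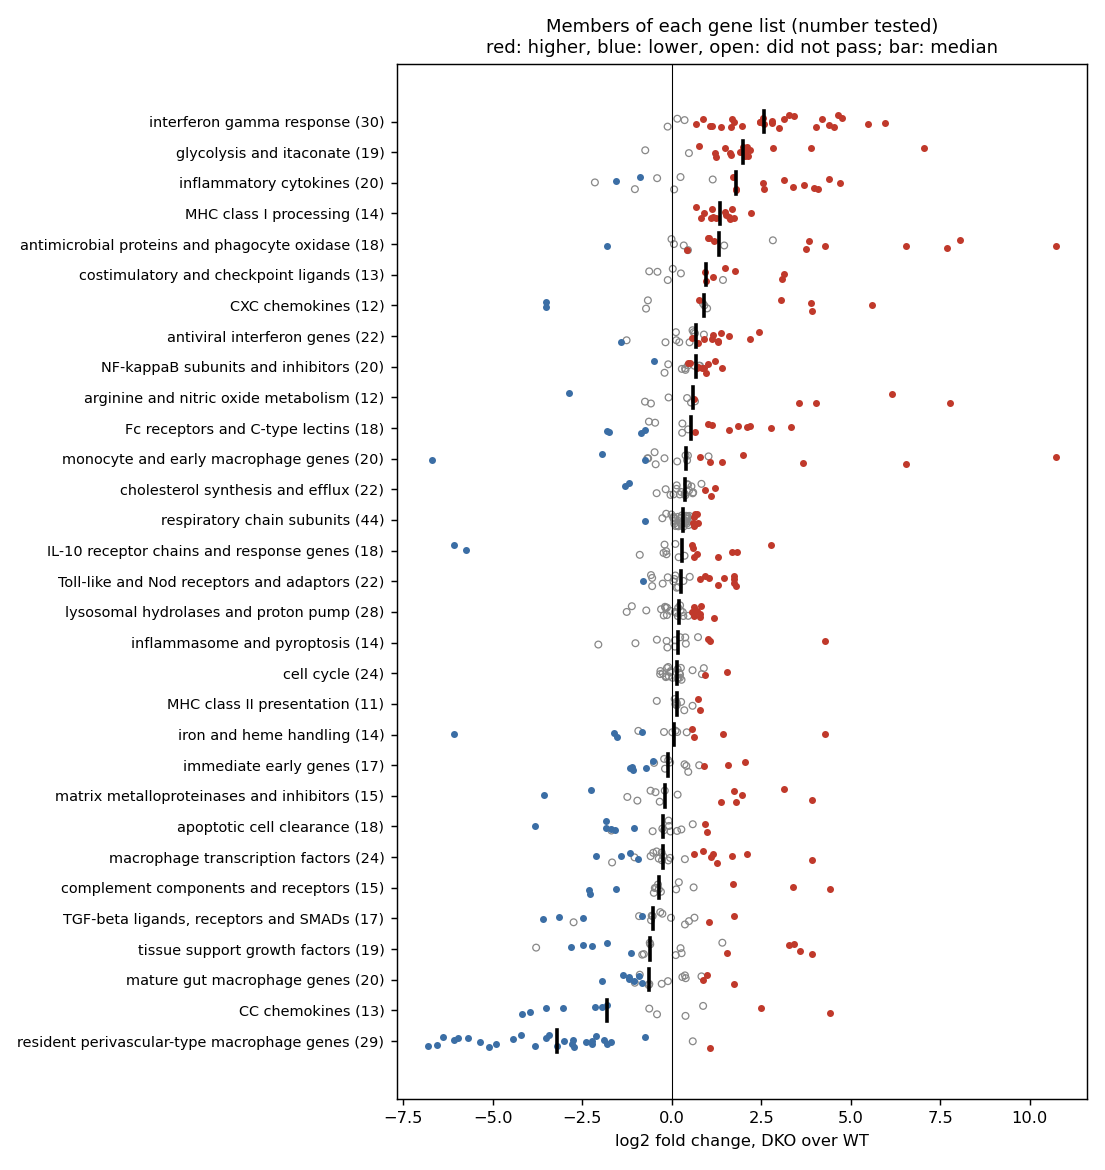
Log2 fold change of DKO over WT (x axis) for every tested member of 31 gene lists (rows, number tested in brackets), with the list median as a black bar. Red and blue points passed the test as higher and lower and open points did not, and the interferon gamma response and the resident macrophage genes stand at opposite ends, with medians of 2.56 and -3.21.

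Genes best known from the response to type I interferon moved less. Of 22, 11 were higher and 1 was lower (median 0.69). *Isg15*, a ubiquitin-like modifier, rose most (2.43 ± 0.20), followed by the nucleic acid sensor *Zbp1* (2.19 ± 0.23) and by *Oasl2* (1.37 ± 0.21). The interferon regulatory factor *Irf7* (1.30 ± 0.20) rose, whereas *Oas2* (-1.43 ± 0.41) was lower, a call that was lost when any of 5 mice was left out. *Mx1* (-0.18 ± 0.32), *Ifit3* (0.12 ± 0.27) and *Irf9* (0.21 ± 0.15) did not pass the test. Under library totals without scaling 7 members were higher.

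Antigen presentation differed between the 2 MHC classes. All 14 tested genes of MHC class I processing were higher (median 1.36). The peptide transporter genes *Tap1* (2.22 ± 0.17) and *Tap2* (1.59 ± 0.19), the loading factor *Tapbp* (1.67 ± 0.20) and the immunoproteasome subunit *Psmb9* (1.75 ± 0.22) led the list. *Tap1* was at 228, 176, 166 and 156 CPM in the WT mice and 941, 814, 770.1 and 855 CPM in the DKO mice. *B2m*, the light chain of all class I molecules, was at 2454, 2693, 2622 and 2362 CPM in the WT mice and 5619, 5856, 4754 and 5925 CPM in the DKO mice (1.13 ± 0.16). *H2-K1* and *H2-D1*, closely related heavy chain genes, rose by 1.23 ± 0.15 and 0.91 ± 0.15. Of 11 genes of MHC class II presentation 2 were higher, the ubiquitin ligase gene *March1* (0.73 ± 0.18) and the protease gene *Ctss* (0.78 ± 0.19). *March1* did not pass with WT mouse 11 added (0.52, adjusted p = 0.140, edgeR). The class II chains *H2-Aa* (0.10 ± 0.16) and *H2-Ab1* (0.35 ± 0.17) and the invariant chain *Cd74* (0.08 ± 0.17) did not pass, and all sorted cells were MHCII+ by the gate. Of 13 costimulatory and checkpoint ligands 7 were higher and none lower, among them *Pdcd1lg2* (3.09 ± 0.25), which encodes PD-L2, *Cd40* (1.77 ± 0.19), *Cd80* (1.48 ± 0.16) and *Cd86* (1.16 ± 0.16).

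Most inflammatory cytokine genes were higher in DKO. Of 20, 12 were higher and 2 lower (median 1.79). *Il6* was at 9.02, 9.26, 9.32 and 11.4 CPM in the WT mice and 189.8, 194, 140.0 and 140.0 CPM in the DKO mice (4.09 ± 0.39). *Il23a*, the specific subunit of IL-23, was at 14.5, 3.46, 5.92 and 2.73 CPM in the WT mice and 161, 321, 109.8 and 106 CPM in the DKO mice (4.70 ± 0.61), and *Il12b*, the subunit that IL-23 shares with IL-12, was at 23.9, 10.3, 6.34 and 23.4 CPM in the WT mice and 226, 199, 138 and 99.8 CPM in the DKO mice (3.38 ± 0.41). *Il12a*, the specific subunit of IL-12, rose by 3.97 ± 0.74. *Il1b* was at 2778, 2688, 2587 and 3299 CPM in the WT mice and 8366, 12580.0, 8880.0 and 9463 CPM in the DKO mice (1.79 ± 0.20) and *Tnf* at 179.8, 196, 166 and 226 CPM in the WT mice and 589.9, 985, 508 and 575 CPM in the DKO mice (1.79 ± 0.36). All 4 DKO mice were above all 4 WT mice for both, by a smaller factor than for *Il6* or *Il23a*. *Il27* (2.54 ± 0.29), *Osm* (1.72 ± 0.27), *Csf3* (3.70 ± 0.72) and *Lif* (2.57 ± 0.53) also rose. *Ifng*, a cytokine made mainly by T and NK cells, was at 0.573, 0.586, 3.56 and 2.33 CPM in the WT mice and 43.1, 3.36, 7.17 and 8.40 CPM in the DKO mice (3.12 ± 0.81, adjusted p = 0.0148), and the groups overlapped. Of 12 T and NK cell markers, 9 could be tested and 1, *Nkg7*, was higher, with a summed level of 49.3 to 104 CPM in WT and 44.9 to 141 CPM in DKO, and their part in *Ifng* was not tested. DKO mouse 3 had both the highest *Ifng* level and the highest T and NK cell sum, and without it *Ifng* did not pass (1.84, adjusted p = 0.0755, edgeR), nor did *Nkg7* (1.14), whose call was lost when any of 5 mice was left out. *Ifng* was at 3.77 without WT mouse 10, and *Il23a* at 5.42 without WT mouse 4. The 2 lower genes were *Il15* (-1.55 ± 0.35) and *Il18* (-0.90 ± 0.29), the second of which did not pass when any of 6 mice was left out.

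The chemokine genes split. Of 13 CC chemokines 2 were higher and 7 lower (median -1.80). *Ccl5*, which attracts T cells and monocytes, was at 23.4, 15.7, 23.5 and 19.8 CPM in the WT mice and 461, 515, 424 and 374 CPM in the DKO mice (4.43 ± 0.35), and *Ccl22*, which attracts regulatory T cells, was at 64.4, 58.5, 3.56 and 12.1 CPM in the WT mice and 252, 221, 155 and 154 CPM in the DKO mice. The ligands of CCR2 fell: *Ccl2* was at 122, 171, 276 and 302 CPM in the WT mice and 13.7, 24.4, 16.7 and 21.7 CPM in the DKO mice (-3.51 ± 0.39), *Ccl7* fell to 13.8, 16.6, 12.4 and 22.3 CPM from 136, 220.3, 274 and 376 CPM, and *Ccl12* was lower by a like amount (-3.02 ± 0.42). *Ccl6* (-1.95 ± 0.20), *Ccl9* (-2.14 ± 0.33), *Ccl24* (-1.80 ± 0.30) and *Ccl11* (-4.17 ± 0.81) were lower as well. *Ccl11* is also a product of fibroblasts, whose 11 tested markers were 339 to 693 CPM in sum in WT and 23.5 to 82.0 CPM in DKO. What part fibroblast RNA has in *Ccl11* was not tested. Without WT mouse 13 its log2 fold change was -3.21. Of 12 CXC chemokines 5 were higher and 2 lower. With *Cxcl9* rose the other CXCR3 ligands, *Cxcl10* (75.5, 66.4, 61.9 and 77.6 CPM in the WT mice and 617, 740.4, 482 and 478 CPM in the DKO mice, 3.04 ± 0.21) and *Cxcl11* (3.89 ± 0.59). *Cxcl1* (0.99 ± 0.51) and *Cxcl2* (0.87 ± 0.36), which attract neutrophils, did not pass, whereas their relative *Cxcl3* (3.92 ± 0.53) did. *Cxcl1* passed without WT mouse 13 (1.575, adjusted p = 0.0484, edgeR) and *Cxcl2* passed with DESeq2 (0.875, adjusted p = 0.0424). The platelet chemokine genes *Pf4* (-3.50 ± 0.43) and *Ppbp* (-3.50 ± 0.81) were the lower members. *Ppbp* did not pass with WT mouse 11 added (-3.19, adjusted p = 0.0914, edgeR).

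Genes of glycolysis were higher in DKO. Of 19 tested genes of glycolysis and itaconate synthesis 17 were higher and none lower (median 2.00). The lactate exporter gene *Slc16a3* was at 36.4, 25.8, 19.9 and 41.4 CPM in the WT mice and 357, 420.0, 537 and 503 CPM in the DKO mice (3.88 ± 0.31) and the glucose importer gene *Slc2a1* rose by 2.82 ± 0.29. Enzymes along the pathway rose, from 0.76 ± 0.23 for *Hk1* to 2.17 ± 0.24 for *Aldoa*, with *Pfkl* (2.03 ± 0.20), *Pkm* (2.05 ± 0.22) and *Ldha* (1.24 ± 0.20) between. *Hk1* did not pass when any of 6 mice was left out. *Hif1a*, the transcription factor of the low-oxygen response that also drives glycolytic genes, was at 232, 215, 178 and 147 CPM in the WT mice and 708, 859, 840.5 and 875 CPM in the DKO mice (2.09 ± 0.19). *Slc2a3* (-0.74 ± 0.45) and *Pfkfb3* (0.48 ± 0.23) did not pass. In arginine metabolism 5 of 12 genes were higher and 1 lower. Both arginases rose with *Nos2*, the cytosolic *Arg1* by 4.04 ± 0.68 and the mitochondrial *Arg2* by 3.56 ± 0.37. *Ddah2*, which removes an inhibitor of nitric oxide synthases, was the lower gene (-2.88 ± 0.45). With at least 10 reads required in every library 2 members of this list stayed higher.

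Nuclear-encoded subunits of the respiratory chain mostly did not pass the test. Of 44 genes 7 were higher and 1 lower (median 0.33), the called ones between -0.74 ± 0.22 for *Ndufa4* and 0.72 ± 0.19 for *Sdhb*. This count was 0 higher under library totals without scaling, and 2 to 4 higher without DKO mouse 3, DKO mouse 9, WT mouse 5 or WT mouse 13. Mitochondrially encoded genes were not analysed here. Of 22 genes of cholesterol synthesis and efflux 3 were higher and 2 lower, with *Apoe*, a lipid carrier, at -1.20 ± 0.26. Of 28 lysosomal genes 9 were higher and none lower, by small factors that reached 1.19 ± 0.17 for *Ctsz*. This count was 3 under library totals without scaling and 5 without DKO mouse 9. Of 24 cell cycle genes 2 were higher, *Cdkn1a* (1.54 ± 0.23), an inhibitor of cycling, and *Ccnd2* (0.92 ± 0.27). The replication and mitosis genes *Mki67* (0.90 ± 0.33), *Top2a* (-0.10 ± 0.37) and *Pcna* (-0.17 ± 0.16) did not pass. *Mki67* did pass in a fit of the DKO and WT libraries alone (adjusted p = 0.0444, edgeR). It also passed with DESeq2 (adjusted p = 0.0328) and without WT mouse 5 (adjusted p = 0.0418, edgeR). The calls of *Ndufa4* and *Ccnd2* were lost when any of 5 and any of 4 mice was left out.

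Microbe sensing and killing genes rose in part. Of 22 Toll-like and Nod receptor genes and adaptors 9 were higher and 1 lower, among the higher ones *Nod1* (1.73 ± 0.20), *Tlr2* (1.73 ± 0.21), *Tlr6* (1.79 ± 0.30) and the lipopolysaccharide co-receptor *Cd14* (1.74 ± 0.22). *Tlr4* itself did not pass (0.07 ± 0.21), and its partner *Ly96* was lower (-0.81 ± 0.23), though not when any of 4 mice was left out. Of 20 genes of the NF-kappaB system 10 were higher and 1 lower. The inhibitor genes *Nfkbie* (1.41 ± 0.23) and *Tnip1* (1.20 ± 0.20) and the subunits *Relb* (1.00 ± 0.17) and *Nfkb2* (0.84 ± 0.19) led, and *Nfkb1* (0.28 ± 0.25) did not pass. The count fell to 6 under library totals without scaling, without DKO mouse 9 and without WT mouse 10. Of 14 inflammasome genes 3 were higher, *Gsdmd* (1.01 ± 0.16), which forms the pore of pyroptosis, *Ninj1* (1.07 ± 0.18), which ruptures the membrane after it, and *Il18bp*. *Nlrp3* (0.73 ± 0.43) and *Casp1* (0.39 ± 0.21) did not pass. Of 18 antimicrobial and oxidase genes 11 were higher and 1 lower. The oxidase subunits *Cybb* (1.17 ± 0.15), *Ncf1* (1.04 ± 0.13) and *Cyba* (1.02 ± 0.18) rose about 2-fold, and the secreted proteins *Hp* (4.27 ± 0.53), *Slpi* (3.84 ± 0.59) and *Saa3* (3.74 ± 0.70) rose by more. With at least 10 reads required in every library 6 members were higher. Of 18 Fc receptors and C-type lectins 9 were higher and 4 lower, with the fungal and mycobacterial sensors *Clec7a* (2.17 ± 0.25), *Clec4e* (3.33 ± 0.38) and *Clec4d* (2.78 ± 0.34) among the higher ones. *Fcgr1*, which encodes CD64 of the gate, did not pass (0.30 ± 0.24).

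Genes of resident, perivascular-type macrophages, which lie along vessels and in the deeper gut wall and take up debris and iron, had the lowest median of the 31 gene lists. Of 30 genes 29 could be tested, 27 were lower and 1 was higher (median -3.21). *F13a1* (chr13:36867178-37050244), which encodes a clotting factor subunit and marks such cells, was at 368, 362, 322 and 325 CPM in the WT mice and 7.67, 11.6, 13.0 and 8.16 CPM in the DKO mice (-5.09 ± 0.23, adjusted p = 1.19e-08). *Lifr*, the receptor of leukemia inhibitory factor, was at 77.2, 78.5, 75.3 and 99.8 CPM in the WT mice and 12.0, 12.1, 12.7 and 11.4 CPM in the DKO mice (-2.78 ± 0.16). *Folr2*, a folate receptor, was at 47.8, 59.1, 54.4 and 79.3 CPM in the WT mice and 0.773, 0.498, 0.281 and 1.19 CPM in the DKO mice (-6.40 ± 0.51). The groups did not overlap for any of the 3 genes. *Cd163*, the scavenger receptor for hemoglobin, was at 77.1, 85.1, 77.8 and 159 CPM in the WT mice and 1.38, 1.25, 2.53 and 0.840 CPM in the DKO mice (-6.08 ± 0.59). *Lyve1*, a hyaluronan receptor shared with lymphatic vessels, was at 93.2, 129, 92.9 and 92.0 CPM in the WT mice and 0.387, 0.996, 0 and 2.72 CPM in the DKO mice (-6.56 ± 0.84), and *Mrc1*, the mannose receptor, at 383, 467, 485 and 587 CPM in the WT mice and 22.9, 56.4, 53.8 and 73.8 CPM in the DKO mice (-3.21 ± 0.46). *Pmp22* (-4.21 ± 0.31), *Ednrb* (-5.37 ± 0.41), *Fcna* (-5.68 ± 0.46) and *Cbr2* (-6.79 ± 0.60) also fell. All 5 tested *Cd209* family genes were lower, from -5.98 ± 1.13 for *Cd209b* to -2.77 ± 0.63 for *Cd209a*, though these are closely related copies. Single mice moved 3 of these values by over 1.5 times: *Cd209b* was at -7.51 without DKO mouse 3, *Cd209a* at -2.15 without WT mouse 4 and *Lyve1* at -7.73 without DKO mouse 14. *Maf*, a transcription factor of resident macrophages, was at 34.8, 36.3, 40.0 and 46.9 CPM in the WT mice and 5.74, 6.72, 11.7 and 12.3 CPM in the DKO mice (-2.11 ± 0.28). Outside this list *Retnla*, a secreted product of alternatively activated macrophages, was at 267, 343, 342 and 399 CPM in the WT mice and 0, 0, 0 and 0.692 CPM in the DKO mice (-10.68 ± 1.03, and at least 5370-fold lower without DKO mouse 14, with DKO set to 3 reads over the group), and *Clec4b1*, a C-type lectin gene, was lower (-4.54 ± 0.34). The exceptions in the list were *Ninj1*, which rose, and *Timd4*, a receptor for apoptotic cells that did not pass (0.59 ± 0.48).

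**Figure D4:**
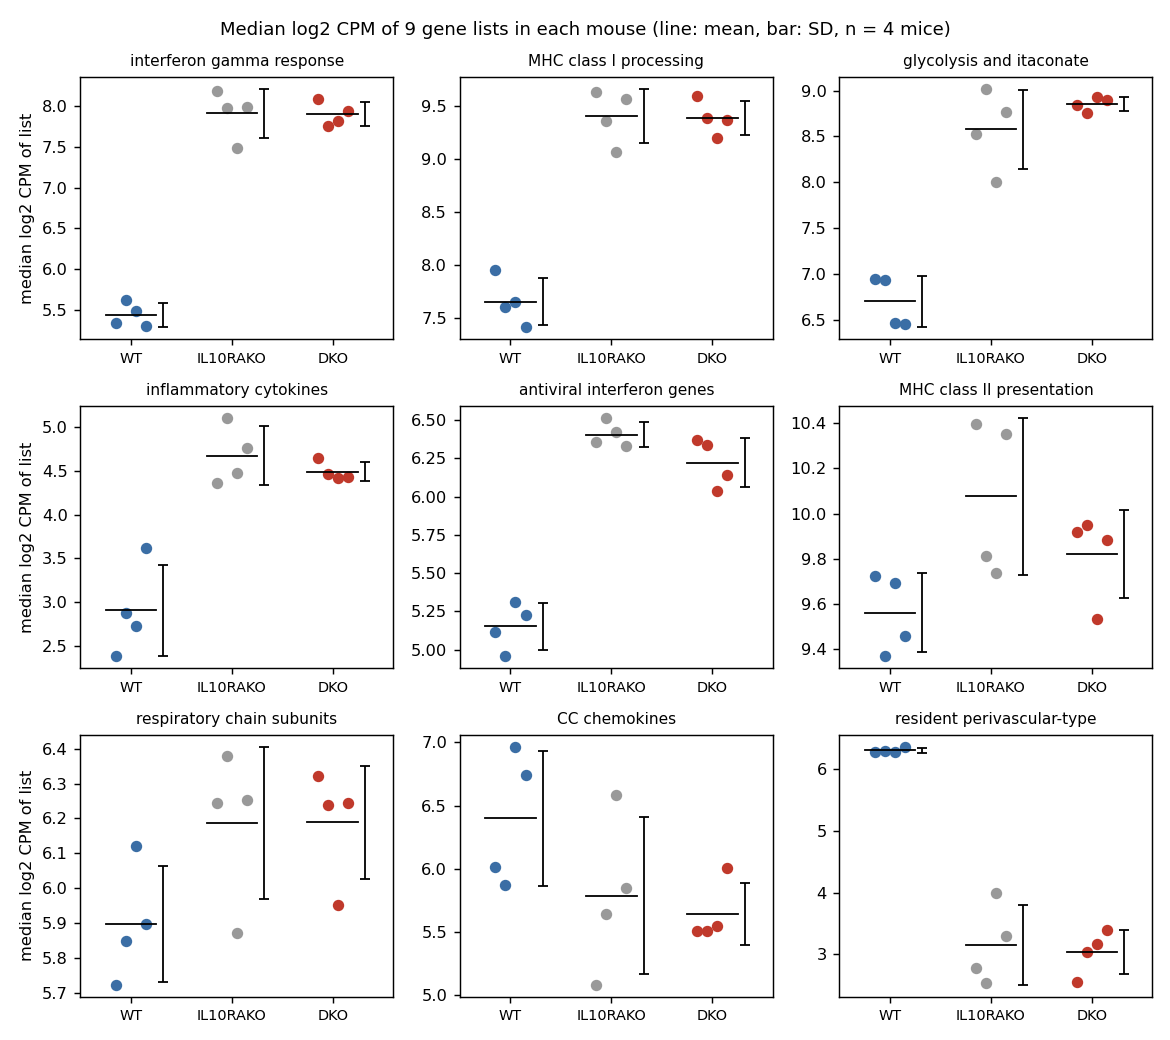
Median log2 CPM of 9 gene lists (panels) in each WT, IL10RAKO and DKO mouse (points), with the mean (line) and SD (bar) of 4 mice. WT mice lie between 6.27 and 6.36 and DKO mice between 2.55 and 3.39 for the resident macrophage genes, and DKO and IL10RAKO mice overlap in all 9 panels.

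The fall of resident genes was accompanied by a fall of stromal markers. All 11 tested fibroblast and smooth muscle markers were lower in DKO (median -3.52), and 5 of 9 tested endothelial markers were lower, with sums of 262 to 698 CPM in WT and 78.9 to 132 CPM in DKO. *Lyve1* belongs to both the endothelial and the resident list. Macrophage markers were alike in sum, with 12940 to 20620 CPM in WT and 14300 to 21910 CPM in DKO. *Lyz2* had the most reads of this list, 93680 to 248437 in WT mice and 137759 to 241025 in DKO mice. Of the 10 markers *Mertk* was higher and *Adgre1* and *Cx3cr1* were lower. The list median per mouse was 9.19 to 9.51 log2 CPM in WT and 8.60 to 9.31 in DKO. The 3 largest falls by fold among genes at a mean of at least 5 CPM were those of *Cyp2c55*, *Retnla* and *Tnc*. *Tnc*, a matrix protein gene, had 22, 464, 121 and 398 reads in the WT mice and 1, 0, 0 and 0 reads in the DKO mice, at least a 219-fold difference without DKO mouse 3, and *Dpysl3* was lower (-6.16 ± 0.84, and -7.27 without DKO mouse 14). *Cyp2c55*, a cytochrome P450 gene known from gut epithelium, had 40, 173, 3984 and 33 reads in the WT mice and 0, 0, 0 and 0 reads in the DKO mice, at least a 1254-fold difference with DKO set to 3 reads over the group, and most of its WT reads came from WT mouse 10, the mouse with the highest epithelial marker sum of the 8 (1512 CPM). Without that mouse the difference in *Cyp2c55* was at least 106-fold, and DESeq2 gave no adjusted p for this gene. Whether RNA of other cells contributed to the fall of the resident genes was not tested.

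**Figure D5:**
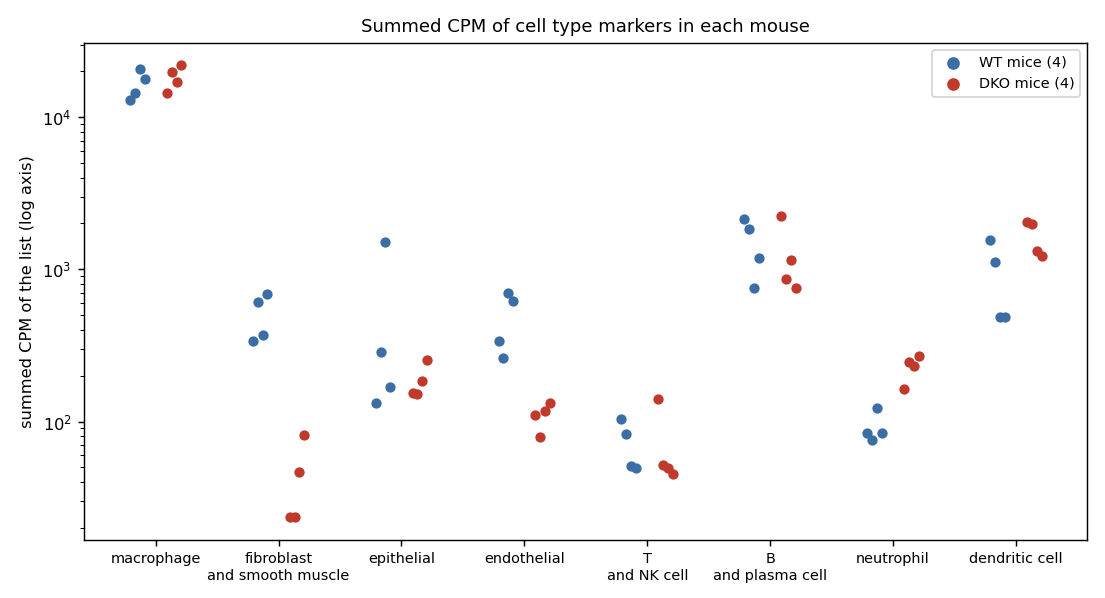
Summed CPM of the tested members of 8 cell type marker lists (x axis) in each WT mouse (blue) and DKO mouse (red), on a log axis. Macrophage sums overlap, fibroblast and smooth muscle sums fall from 339 to 693 CPM in WT to 23.5 to 82.0 CPM in DKO, and neutrophil sums rise from 75.2 to 122 CPM to 164 to 270 CPM. *Lyz2* had the most reads of the macrophage markers and *Csf3r* of the neutrophil markers.

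Genes that gut macrophages acquire as they mature were split. Of 20, 3 were higher and 7 lower (median -0.64). *Cx3cr1*, the fractalkine receptor, was at 427, 381, 431 and 319 CPM in the WT mice and 135, 181, 143 and 216 CPM in the DKO mice (-1.21 ± 0.32), and *Hes1* (-1.37 ± 0.20), *Cd81* (-1.94 ± 0.33), *Adgre1* (-1.05 ± 0.30) and *Tgfbr2* (-0.83 ± 0.25) were lower. *Cd14*, *Itgax* (0.86 ± 0.23), which encodes CD11c, and *Mertk* (0.98 ± 0.31) were higher, while *Csf1r* (0.37 ± 0.20) and *Cd68* (-0.11 ± 0.17) did not pass. Among the named genes the calls of *Cx3cr1* (2 mice), *Itgax* (3 mice), *Tgfbr2* (4 mice), *Adgre1* (5 mice) and *Mertk* (5 mice) were lost when any of that number of mice was left out, DKO mice 3 and 12 in the case of *Cx3cr1*. The count of lower genes was 3 without DKO mouse 3 and 4 without DKO mouse 9, DKO mouse 12, WT mouse 10 or WT mouse 13. Of 20 genes of monocytes and early macrophages 7 were higher and 3 lower. *Ly6c2*, which encodes the Ly6C antigen of monocytes, was at 7.64, 6.45, 5.80 and 6.13 CPM in the WT mice and 89.0, 75.3, 74.9 and 87.8 CPM in the DKO mice (3.65 ± 0.35), although the gate took Ly6C- cells. *Plac8* (1.98 ± 0.31) and the integrin gene *Itgal* (1.40 ± 0.26) were higher, *Ccr2* and *Ly6c1* (-1.96 ± 0.49) were lower, and the monocyte genes *Vcan* (-0.68 ± 1.06), *Fn1* (-0.48 ± 0.50) and *Chil3* (-0.20 ± 1.12) did not pass. Of 10 dendritic cell markers 3 were higher and 2 were lower, with sums of 488 to 1569 CPM in WT and 1228 to 2043 CPM in DKO. Among the higher ones was the migration receptor gene *Ccr7* (1.42 ± 0.40, a call lost when any of 3 mice was left out). *Ccr7* had 3792 to 19293 reads in WT mice and 15091 to 30540 in DKO mice, the most of this list in DKO. What part dendritic cells have in *Il12b* or *Ccl22* was not tested.

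Among genes by which macrophages take up dying cells more were lower than higher, though most did not pass, and iron and heme genes were evenly split. Of 18 genes of apoptotic cell clearance 6 were lower and 2 higher. *Gas6*, the bridging ligand of TAM receptors, was at 208, 248, 254 and 242 CPM in the WT mice and 13.5, 18.0, 14.6 and 21.9 CPM in the DKO mice (-3.81 ± 0.43), and the second ligand *Pros1* (-1.83 ± 0.23), the bridging protein *Mfge8* (-1.57 ± 0.29) and the scavenger receptor *Cd36* (-1.83 ± 0.38) were lower. The TAM receptor gene *Mertk* was higher, and *Axl* (0.15 ± 0.28) did not pass. Of 14 genes of iron and heme handling 4 were higher and 4 lower (median 0.06). The iron exporter *Slc40a1* (-1.52 ± 0.43) was lower and the storage chain *Fth1* (1.43 ± 0.20) higher. Among the lower genes, *Gas6* and *Stab1* of the clearance list and *Cd163* of the iron list also belong to the resident list. Of 15 complement genes 3 were higher and 3 lower. *C3* was at 82.7, 64.1, 93.2 and 149 CPM in the WT mice and 380.0, 925, 1336 and 1440.0 CPM in the DKO mice (3.39 ± 0.42), and *C2* rose by 1.72 ± 0.55, whereas the inhibitor *Serping1* (-2.31 ± 0.31), also made by fibroblasts, was lower. The chains of C1q, the abundant macrophage complement protein, did not pass, with *C1qa* at -0.44 ± 0.24. The calls of *Slc40a1*, *Mertk* and *C2* were lost when any of 4, 5 and 7 mice was left out, and *C2* was at 2.81 without WT mouse 10.

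Growth factor and matrix genes changed in both directions. Of 19 tissue support genes 5 were higher and 5 lower. *Ptgs2*, the inducible prostaglandin synthase, was at 395, 505, 307 and 422 CPM in the WT mice and 2776, 6646, 5111 and 5018 CPM in the DKO mice (3.58 ± 0.30), and its downstream enzyme *Ptges* rose by 3.27 ± 0.60. *Vegfa*, a driver of vessel growth, was at 82.3, 76.7, 31.1 and 70.1 CPM in the WT mice and 554, 1016, 1282 and 1107 CPM in the DKO mice (3.93 ± 0.35), and the epidermal growth factor family genes *Nrg1* (3.41 ± 0.37) and *Areg* (1.55 ± 0.38) rose. *Igf1* (-2.24 ± 0.41), *Bmp2* (-2.48 ± 0.38), *Wnt4* (-2.82 ± 0.68), *Pdgfa* (-1.81 ± 0.37) and *Pdgfb* (-1.15 ± 0.34) were lower. Of 15 metalloproteinase genes and inhibitors 6 were higher, led by *Mmp14* (1.80 ± 0.16), *Plaur* (1.75 ± 0.18), *Mmp25* (3.92 ± 0.63) and *Mmp8* (3.13 ± 0.54), and the inhibitors *Timp2* (-2.27 ± 0.29) and *Timp3* (-3.58 ± 0.52) were lower. Of 17 TGF-beta genes 2 were higher and 4 lower. *Tgfb1* (0.48 ± 0.28) did not pass, and *Tgfb2* (-3.60 ± 0.81) and *Ltbp1* (-3.15 ± 0.76), typical of stroma, were among the lower ones, as the fibroblast markers were. *Ptges* was at 4.05 and *Mmp25* at 4.91 without WT mouse 4, *Ltbp1* was at -4.10 without DKO mouse 14, and *Pdgfb* did not pass when any of 6 mice was left out. With WT mouse 11 added, *Areg* (1.10, adjusted p = 0.123), *Wnt4* (-2.50, 0.120), *Tgfb2* (-3.28, 0.0794) and *Ltbp1* (-2.83, 0.123) did not pass the edgeR test, and with sex as a term neither did *Wnt4* (-2.56, 0.0574).

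Apart from *Il10ra* and *Cd163*, genes of the IL-10 response were higher or did not pass. Of 18 genes of the receptor chains and response 8 were higher and 2 lower, the lower ones being *Il10ra* and *Cd163*. *Stat3* rose (0.60 ± 0.20), as did *Socs3* (0.56 ± 0.17), *Il4ra* (0.62 ± 0.15), *Bcl3* (0.70 ± 0.23) and *Nfil3* (1.68 ± 0.24). *Il1rn*, the natural antagonist of IL-1, was at 466, 361, 227 and 417 CPM in the WT mice and 2316, 3241, 2174 and 2304 CPM in the DKO mice (2.77 ± 0.26). The calls of *Socs3*, *Bcl3* and *Stat3* were lost when any of 5, 7 and 7 mice was left out. The count was 4 or 5 without WT mouse 5, WT mouse 10, DKO mouse 9, DKO mouse 12 or DKO mouse 14, and 4 under library totals without scaling. Among 24 macrophage transcription factor genes 8 were higher and 4 lower, with *Batf2* (3.91 ± 0.46), *Bhlhe40* (1.68 ± 0.30), *Cebpb* (1.27 ± 0.27) and *Runx3* (1.14 ± 0.15) higher and *Batf3* (-1.42 ± 0.22), *Klf2* (-1.17 ± 0.23) and *Tcf4* (-0.94 ± 0.20) lower beside *Maf*. *Spi1* (0.37 ± 0.18) and *Zeb2* (-0.27 ± 0.23) did not pass. *Batf2* was at 4.56 without WT mouse 10. Of 17 immediate early genes, which also respond to tissue digestion, 3 were higher and 5 lower, among them *Egr2* (2.04 ± 0.24), *Jun* (-1.16 ± 0.17) and *Atf3* (-1.09 ± 0.19). Without DKO mouse 14, 3 were lower.

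DKO macrophages differed from those of the 4 IL10RAKO mice, which keep *Ccr2*, in few genes. Between DKO and IL10RAKO 6 of 13136 genes (0.0457%) passed, 2 higher and 4 lower in DKO. An unadjusted p under 0.05 (edgeR) was seen for 388, fewer than the 5% of genes that chance alone would give. Of the 704 genes called in DKO against WT and not in IL10RAKO against WT, 2 passed between DKO and IL10RAKO. *Ccr2* was at 627, 361, 379.9 and 535 CPM in the IL10RAKO mice, a difference of -6.39 (95% interval -6.95 to -5.83) on the log2 scale. *Ccl24*, an eosinophil chemokine gene, was at 1.11, 1.68, 1.57 and 2.51 CPM in IL10RAKO and 7.40, 8.65, 8.15 and 10.5 CPM in DKO mice, a difference of 2.33 (95% interval 1.65 to 3.02). *Ccl24* was thus lower than WT in both, and less so in DKO. *Thbs3*, a thrombospondin gene, had 3 reads in all DKO mice together and was at 0.905, 0.934, 1.21 and 0.528 CPM in IL10RAKO mice and 6.40, 7.68, 7.46 and 13.7 CPM in WT mice. *2010315B03Rik* was higher in DKO by 1.53 (95% interval 1.17 to 1.89). *G530011O06Rik* differed by -2.43 (95% interval -2.89 to -1.98), and it overlaps *Mid1* on the other strand.

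For some of the gene lists above, values of the same test in IL10RAKO mice against the same 4 WT mice are given. The median was 2.48 for the interferon gamma response (27 of 30 higher) and 1.36 for MHC class I processing (13 of 14 higher). It was 1.74 for glycolysis and itaconate (16 of 19 higher), 2.23 for inflammatory cytokines (12 of 20 higher) and -2.42 for resident macrophage genes (24 of 29 lower). For CC chemokines it was -0.78 (6 of 13 lower), against -1.80 in DKO (7 of 13 lower). Only 1 of these 13 genes passed between DKO and IL10RAKO, *Ccl24*, which was higher in DKO. The list medians per mouse overlapped, with 5.51 to 6.00 log2 CPM in DKO and 5.08 to 6.58 in IL10RAKO. Counts were 4 lower against 7 in DKO for mature gut macrophage genes, and 5 higher against 9 in DKO for lysosomal genes. In both of these lists 0 members passed between DKO and IL10RAKO, with median differences of -0.16 and 0.04. The share of all genes called in IL10RAKO against WT is not given here, so the counts of calls alone show no difference between the 2 genotypes. The rest of the 31 lists are not given here. The WT mice are shared, so these medians and counts are not independent of those of DKO. Among the 31 lists, the list medians per mouse of DKO and IL10RAKO did not overlap for 1, the monocyte and early macrophage genes, a list that holds *Ccr2*, with 6.31 to 6.70 log2 CPM in DKO and 6.83 to 7.28 in IL10RAKO, given without a test and picked out after its values were seen. Differences between DKO and IL10RAKO in single genes had wide intervals. *Il12b* differed by -0.07 (95% interval -0.86 to 0.72), *Ifng* by 0.07 (95% interval -1.49 to 1.63), *Tnf* by -0.54 (95% interval -1.29 to 0.21), *Nos2* by 0.98 (95% interval -0.43 to 2.39) and *F13a1* by -0.89 (95% interval -1.32 to -0.46). The interval spans 0 for the first 4 of these genes, and for *Ifng* it also spans a 2-fold change in either direction. That of *F13a1* does not span 0, but its adjusted p was 0.387. In the single CCR2KO mouse, with no replicate, *Il10ra* was at 186 CPM, *F13a1* at 239 CPM, *Folr2* at 89.0 CPM and *Cxcl9* at 28.7 CPM, and *F13a1*, *Folr2* and *Cxcl9* were closer to the WT than to the DKO mice.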

How the data were processed

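RNA of sorted macrophages was made into SmartSeq v4 libraries. Alignment to mm10 and counting per gene were done by the authors with STAR (2.5.1b, per the submitters' processing notes), and the deposited whole-number counts per gene were used. Strand-specific counting is not given in the sources used here. The 8 libraries held 13085287 to 21216468 counted reads, and a sum of 3 reads over a group is taken as the floor, which covers counting error only. Human-style names in the table were matched to GENCODE mouse symbols (24490 of 24982). A table of edgeR pseudocounts was not used.

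Counts were fitted with edgeR (4.0.16, R 4.3.3): filterByExpr with a minimum count of 10, TMM scaling, and the quasi-likelihood test with 1 coefficient for each of 3 genotypes over 12 libraries, with Benjamini-Hochberg adjustment over 13136 genes. Standard errors are the log2 fold change divided by the root of the F statistic. Replicates are separate mice. DESeq2 (1.42.0), other scalings, filters and libraries were tried as alternatives, and the scripts were tested on simulated data. Named genes are *Il10ra* and *Ccr2*, the 10 with the smallest adjusted p whose groups do not overlap and the 10 with the largest fold (mean of at least 5 CPM) in each direction, the genes called between DKO and IL10RAKO, and members of 31 gene lists and 12 marker lists by adjusted p. Other list members named were chosen after their values were seen, and so were all lists and members, since earlier results of these data were known. Some genes that these rules name, 1 of them among the 10 higher by adjusted p, are counted but not reported here.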

Additional observations from a re-analysis of the deposited data

Results flagged for a closer look

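Among groups of 4 mice, 22 of 214 groups of values examined had 1 mouse far from the other 3 (Dixon's test at the 95% level, under which chance gives about 5% of groups). In gene list medians (log2 CPM), DKO mouse 3 was low for IL-10 receptor chains and response genes (7.997 against 8.102 to 8.121) and for TGF-beta genes (3.951 against 4.691 to 4.718). DKO mouse 12 was low for MHC class II presentation (9.533 against 9.885 to 9.948), DKO mouse 14 was high for CC chemokines (6.004 against 5.506 to 5.546), and WT mouse 4 was low for matrix metalloproteinases and inhibitors (5.83 against 6.31 to 6.40). In summed markers, WT mouse 10 was high for epithelial markers (1512 CPM against 132 to 287 CPM) and DKO mouse 3 for T and NK cell markers (140.5 CPM against 44.9 to 51.5 CPM).

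In single genes (log2 CPM), DKO mouse 3 was high for *Serpinb9* (7.45), DKO mouse 9 for *Acod1* (9.94) and *Il1rn* (11.66), and DKO mouse 12 for *Slc7a2* (7.18). WT mouse 13 was high for *Lifr* (6.64), *Cd163* (7.31), *Il6* (3.52), *Ido1* (0.065) and *S100a8* (-0.241), WT mouse 5 for *Lyve1* (7.01), and WT mouse 4 for *Ngp* (-1.96). WT mouse 10 was low for *Cd274* (6.42) and *Vegfa* (4.97). *Retnla* (-0.312) had reads in 1 DKO mouse, DKO mouse 14, and *Tnc* (-2.57) in DKO mouse 3 alone. For *Ngp*, *S100a8*, *Ido1*, *Retnla* and *Tnc* the other 3 mice of the group had no reads.

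By the edgeR test between DKO and IL10RAKO, the change from WT differed in *Ccr2* (-6.39 on the log2 scale), *Thbs3* (-4.16), *G530011O06Rik* (-2.43), *Ccl24* (2.33) and *2010315B03Rik* (1.53). WT mouse 11, a library outside the comparison, had a summed epithelial marker level of 4328 CPM.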

How the results depend on the processing

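No alternative turned the direction of an examined gene that passed the test, and 210 to 227 of the 227 genes examined stayed on their side of the threshold under each alternative that tested all of them. With WT mouse 11 added, 17 lost their call: *Reg3g*, *Areg*, *Wnt4*, *Tgfb2*, *Ltbp1*, *March1*, *Ppbp*, *2010315B03Rik*, *C2*, *Hk1*, *Il18*, *Mertk*, *Nkg7*, *Oas2*, *Slc40a1*, *Stat3* and *Tgfbr2*. With sex as a term 9 lost it, under library totals 13, and 21 when at least 1 mouse was left out. In the fit of the 8 libraries of DKO and WT alone 7 lost it: *C2*, *Hk1*, *Il18*, *Ly96*, *Mertk*, *Nkg7* and *Stat3*. Calls were gained by *Mki67*, *Cxcl1* and *Cxcl2*, as given above, by *Pfkfb3* and *Csf1r* without DKO mouse 3, and by *C1qa* and *Mid1* under library totals. Which changes depth limits was not tested. Under library totals without scaling 748 genes were higher and 2140 lower, and the counts higher were 4 for the IL-10 response, 7 for antiviral interferon genes, 0 for respiratory chain subunits, 6 for NF-kappaB and 3 for lysosomal genes. With at least 10 reads in every library they were 5 for the IL-10 response, 2 for arginine and nitric oxide metabolism and 6 for antimicrobial genes. Of the named members lost, *Nos2*, *Slc7a2*, *S100a8*, *S100a9*, *Ngp* and *Reg3g* were not tested under that filter, whereas *Stat3*, *Socs3* and *Bcl3* were tested and missed the threshold (adjusted p of 0.0553, 0.0560 and 0.0517, edgeR). With WT mouse 11 added or sex as a term (added after seeing the data), 4 and 3 respiratory chain subunits were higher. At a log2 fold change of at least 1, 665 genes were higher, and 4 of the IL-10 response, 0 respiratory chain, 3 NF-kappaB and 1 lysosomal gene, while 3 immediate early genes were lower. Leaving out 1 mouse, the counts higher ran from 4 to 8 (IL-10 response), 2 to 8 (respiratory chain), 6 to 10 (NF-kappaB) and 5 to 8 (lysosomal genes), and the counts lower from 3 to 8 (mature gut macrophage genes) and 3 to 5 (immediate early genes). The count of all called genes was 1691 to 2995 in those fits, 3008 with DESeq2 and 2911 with the other deviance setting of edgeR. Beyond the filter, the cause of these shifts was not tested. No paired analysis was possible, because each mouse belongs to 1 genotype and the labels give the mice no shared replicate numbers, litter or cage. The paper states that its controls were littermates housed together, so a shared litter or cage could not be taken into account.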

Other observations

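The remaining marker lists gave little. None of 8 tested B and plasma cell markers passed, with sums of 749.6 to 2148 CPM in WT and 751.5 to 2225 CPM in DKO. *Kit*, the stem cell factor receptor gene listed with mast cells, was higher in DKO, with 241 to 685 reads in WT mice and 1300 to 2067 reads in DKO mice, whereas the mast cell genes had fewer reads, 0 to 36 and 0 to 35 for *Cpa3*, 0 to 71 and 0 for *Mcpt1*, and 0 and 0 to 12 for *Ms4a2*. *Siglech*, a marker of plasmacytoid dendritic cells, had 333 to 620 reads in WT mice and 0 to 26 reads in DKO mice. Of 8 enteric glia and neuron markers 2 could be tested and 1 was lower.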
